A study of Mus musculus with 8 samples.

Results

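The genes described here are 9 receptors through which myeloid cells sense cytokines, measured in common myeloid progenitors (CMPs) of young and old mice. All array probes carrying 1 of these 9 gene names were taken, whatever their signal, which gave 15 of the 55681 probes on the array and 9 of its 34797 gene names. The members are Csf1r, Csf2ra, Csf2rb, Csf2rb2, Csf3r, Il3ra, Epor, Flt3 and Il6ra. Every member probe was well above background on all 8 arrays and none was lost to a filter.

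The cells came from untreated, wildtype C57BL/6J mice, and age was the only difference that the labels give between the groups. The 4 young arrays (replicates 3 to 6, mice of 2 to 3 months) were compared with the 4 old arrays (replicates 2 to 5, mice of 22 to 24 months). CMPs were sorted from marrow as lineage-negative, cKit+, Sca-1-, CD34+ cells with low Fcγ receptor after cKit enrichment, and their total RNA was hybridised to 1-colour Agilent arrays. Neither the labels nor the methods tie an array to an animal, and the methods give fewer mice per age (3) than there are arrays, so the p-values measure the spread between these arrays, part of which may be technical.

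Cytokine receptors decide which signals a progenitor can receive. Csf1r and Flt3 are receptor tyrosine kinases. The other members belong to the type I cytokine receptors, which have no kinase of their own and signal through JAK kinases and STAT proteins. Csf2ra and Il3ra are ligand-binding α chains that pair with the common β chain Csf2rb to form the receptors for GM-CSF and IL-3, and mice carry an additional β chain, Csf2rb2, that serves IL-3 alone. Csf3r and Epor form homodimers that bind G-CSF and erythropoietin, and Il6ra presents IL-6 to the shared chain Il6st. CMPs give rise to the granulocyte and macrophage lineages as well as to the megakaryocyte and erythroid lineages, which depend on different members of this set.

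None of the 9 receptors passed the threshold in either direction (adjusted p under 0.05 by limma over all 33479 tested probes, and at least 1.5-fold). Over all 23161 genes tested 0.25% passed it, 0.207% as higher and 0.0432% as lower in old. Without adjustment, 1 of the 15 member probes had a limma p under 0.05, the brightest probe of Csf1r, as did 6.34% of all tested probes. The unadjusted test that the methods use picked the same 1 probe. By the brightest probe of each gene, 3 members were higher and 6 lower in old, with a median log2 difference of -0.26, against -0.01 over all genes tested, of which 47.6% were higher. All differences below are log2 differences of old minus young with the standard error (SE) of the limma fit, and all levels are log2 signals above or below the 75th percentile of their own array. In bulk RNA of sorted cells, fewer cells of a type and less RNA per cell cannot be told apart.

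**Figure D1:**
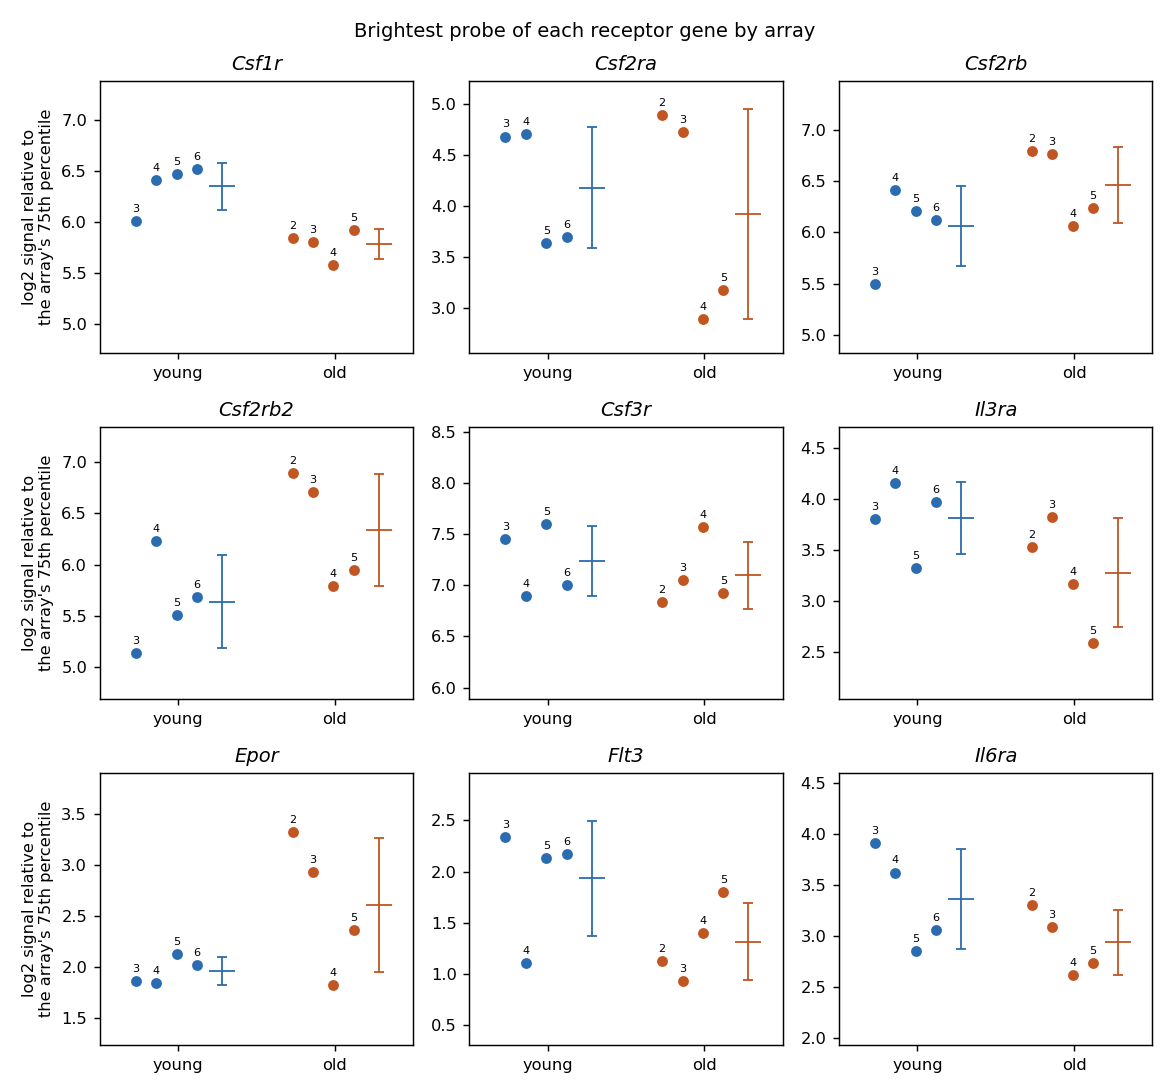
Level of the brightest probe of each receptor gene (y axis, log2 signal with the 75th percentile of each array at 0; all panels span the same range) on 4 young and 4 old arrays. Points are arrays with their replicate numbers, and the bar beside them is the mean with the SD. Csf1r is the only gene whose ages do not overlap, and Csf2ra splits within each age.

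Csf1r, the receptor for M-CSF and IL-34 that macrophages depend on, was the member that separated the ages. Its brightest probe (mm9, chr18:61290725-61290784, plus strand) had levels of 6.01, 6.41, 6.47 and 6.52 on young 3, 4, 5 and 6, and of 5.85, 5.81, 5.58 and 5.92 on old 2, 3, 4 and 5. Every old array lay below every young array. The mean was 6.35 ± 0.23 (SD, n = 4) in young and 5.79 ± 0.15 in old CMPs. The difference of -0.57 (SE 0.18, 95% interval -0.97 to -0.16) corresponds to a 1.48-fold lower signal in old, just under the minimum fold, and its adjusted p was 0.448. The exact two-sided permutation test of this probe gave p = 0.0286, the smallest that 4 against 4 arrays allow. Ages did not overlap in 1 of the 15 member probes, and in 4.42% of all tested probes. Within the slide that held young 3, young 4, old 2 and old 4 the difference was -0.50, and within the other slide -0.63.

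The other Csf1r probes did not separate the ages. A probe further upstream (chr18:61289398-61289758) read 1.34, 2.29, 2.36 and 2.20 in young and 1.40, 1.5, 0.84 and 2.18 in old. Its difference was also -0.57, but young 3 lay below 3 of the 4 old arrays and the adjusted p was 0.949. The probe nearest the 5′ end (chr18:61278661-61278720) read 0.64, 1.05, 1.31 and 1.16 in young and 0.59, 0.87, 1.02 and 1.38 in old, a difference of -0.07 (adjusted p 0.998). The gene's 3 probes thus differed in their reading of the age difference.

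Markers of the cells that use Csf1r were also lower on average. Of 8 monocyte and macrophage markers tested, 0 passed the threshold and 7 were lower in old, with a median difference of -0.36, and their mean level ran from 2.25 to 2.60 on young and from 1.55 to 2.32 on old arrays. The lowest were Ly86 (-1.07, adjusted p 0.149), Ccr2 (-0.99, adjusted p 0.282) and Mpeg1 (-0.77, adjusted p 0.326). In contrast, Emr1 (-0.09) and Cx3cr1 (-0.06) hardly differed, and Itgam (0.25) was the marker that was higher. The macrophage genes C1qa and Vcam1 were well above background on 0 arrays. All 8 granulocyte precursor markers were lower in old without passing the threshold, with a median of -0.53, and their mean level ran from 4.12 to 4.47 on young and from 3.36 to 3.92 on old arrays. The part of these cells in the Csf1r values was not tested.

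**Figure D2:**
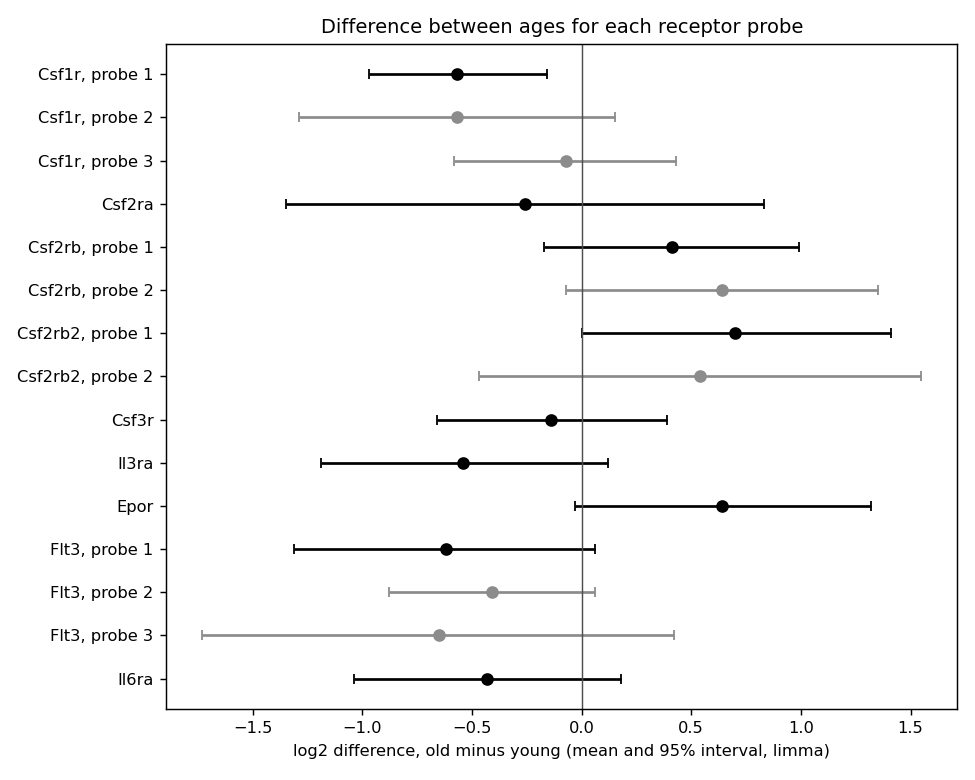
Difference between ages (x axis, log2, old minus young) for the 15 receptor probes, with the 95% interval of the limma fit. Black marks the brightest probe of a gene and grey its other probes, numbered by falling signal. The intervals of 14 probes reach or cross 0, and that of the brightest Csf1r probe does not.

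The 2 β chains are neighbouring paralogs, and their brightest probes cover related sequence. The stretches below are shown because they bear on whether the probes can tell the paralogs apart. Capitals mark the positions at which they differ, and 27 of 30 letters match.
Csf2rb (mm9, chr15:78181198-78181227, plus strand): gcagatcaaAtgtCccttggtctCtgttca
Csf2rb2 (mm9, chr15:78113144-78113173, minus strand): gcagatcaaGtgtTccttggtctAtgttca
Over the whole overlap of these probes, 31 of 42 letters matched. In the other 3 probe pairings of the genes, the best ungapped overlap matched between 31.6% and 41.1% of the letters.

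Csf2rb, the β chain shared by the GM-CSF, IL-3 and IL-5 receptors, read 5.50, 6.42, 6.21 and 6.12 on young 3, 4, 5 and 6, and 6.80, 6.77, 6.06 and 6.24 on old 2, 3, 4 and 5. Old 2 and old 3 exceeded every young array, while old 4 and old 5 lay within the young range. The difference was 0.41 (SE 0.26, 95% interval -0.17 to 0.99, adjusted p 0.986), and 0.22 without young 3. Its upstream probe (chr15:78179504-78179563) gave 0.64 (adjusted p 0.881), with old 2 at 3.46 and old 3 at 3.61 against a young range of 1.84 to 2.93.

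Csf2rb2, the β chain of the mouse IL-3 receptor alone, showed the largest difference among the brightest probes. It read 5.13, 6.23, 5.51 and 5.68 in young and 6.90, 6.71, 5.79 and 5.95 in old, and again old 2 and old 3 were above all young arrays and old 4 and old 5 were not. The difference was 0.70 (SE 0.32, 95% interval 0.00 to 1.41), or 1.63-fold, with an adjusted p of 0.794 and an exact permutation p of 0.114. The upstream probe (chr15:78114097-78114156) read 2.12, 3.5, 3.61 and 3.49 in young and 4.35, 4.19, 2.54 and 3.79 in old, a difference of 0.54 (adjusted p 0.998).

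The levels of the 2 β chains went together from array to array. Over the 8 arrays, the brightest probes of Csf2rb and Csf2rb2 had a Pearson r of 0.95 (exact permutation p = 0.000546, adjusted p = 0.0197 over the 36 pairs of members) and a Spearman rho of 0.90 (exact p = 0.00456, adjusted p = 0.13). Without the 2 arrays farthest from the median of Csf2rb, r was 0.92. The permutations ran over both ages, and after subtraction of the mean of each age r was 0.94. Each slide holds 4 arrays, too few for a value within slides. The upstream probes of the genes, which share few letters, gave r = 0.87 (exact permutation p = 0.00853, adjusted p = 0.0095 over 4 probe pairings) and rho = 0.93 (exact p = 0.00223, adjusted p = 0.00446), and r = 0.79 without the 2 farthest arrays. Another pairing of little similarity, the upstream Csf2rb probe with the brightest Csf2rb2 probe, gave r = 0.85 (exact permutation p = 0.0095, adjusted p = 0.0095) but rho = 0.71 (exact p = 0.0576, adjusted p = 0.0576) and r = 0.49 without the 2 farthest arrays. The remaining pairing, the brightest Csf2rb probe with the upstream Csf2rb2 probe, gave r = 0.91 (exact permutation p = 0.000818, adjusted p = 0.00164). Its rho was 0.93 (exact p = 0.00223, adjusted p = 0.00446), and r was 0.74 without the 2 farthest arrays. These pairings were looked at after the first correlation was known, and the part of shared sequence in them was not tested.

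Csf2ra, the α chain of the GM-CSF receptor, was split within each age. Its probe (mm9, chr19:61300336-61300395, minus strand) read 4.68, 4.70, 3.64 and 3.70 on young 3, 4, 5 and 6, and 4.89, 4.72, 2.89 and 3.18 on old 2, 3, 4 and 5. Within each age 2 arrays were high and 2 low, and no array lay between 3.70 and 4.68. The young split coincided with the slides, young 3 and 4 on one and young 5 and 6 on the other, and the old split did not, since each slide held a high and a low old array. In background-corrected intensity the probe ran from 2150 on old 4 to 15300 on old 2. The difference between ages was -0.26 (SE 0.49, 95% interval -1.35 to 0.83, adjusted p 0.998), -0.80 within the first slide and 0.28 within the second. Without old 4 it was 0.08, so that 1 array set its direction. Its SD within age, 0.84, was at the 94.6th percentile of all tested probes, whose median was 0.35.

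Il6ra, which binds IL-6, had the same pair of high arrays within each age. Its probe (chr3:89674054-89674113, minus strand) read 3.91, 3.62, 2.85 and 3.06 in young and 3.30, 3.09, 2.62 and 2.73 in old. Young 3 and 4 exceeded young 5 and 6, again as the slides divide them, and old 2 and 3 exceeded old 4 and 5. The difference between ages was -0.43 (SE 0.27, 95% interval -1.04 to 0.18, adjusted p 0.989), -0.81 within the first slide and -0.05 within the second. With 1 array left out it ran from -0.60 to -0.24, the latter without young 3. The correlation with Csf2ra (r = 0.81, exact permutation p = 0.0131, adjusted p = 0.108; rho = 0.79, adjusted p = 0.251; r = 0.64 without the 2 farthest arrays) did not pass after adjustment.

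Il3ra, the α chain of the IL-3 receptor, was lower on average in old CMPs although its β chains were higher. Its probe (chr14:15187898-15187957, plus strand) read 3.80, 4.15, 3.32 and 3.97 in young and 3.53, 3.82, 3.16 and 2.59 in old, and old 4 and old 5 lay below every young array. The difference was -0.54 (SE 0.29, 95% interval -1.19 to 0.12, adjusted p 0.928). With 1 array left out it ran from -0.72 to -0.31, the latter without old 5.

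Csf3r, the G-CSF receptor of the neutrophil lineage, had the smallest difference between the ages among the brightest probes. Its probe (mm9, chr4:125721478-125721537, plus strand) read 7.45, 6.90, 7.60 and 7.0 in young and 6.84, 7.05, 7.57 and 6.93 in old. The ranges of these scaled levels overlapped almost completely. In background-corrected intensity, before scaling, the probe read 65900 to 72600 on young and 47000 to 59300 on old arrays. The highest scaled levels were on young 5 and old 4. These arrays had the lowest 75th percentiles of their age, 352 and 290. The part of a signal ceiling in these values was not tested. The difference was -0.14 (SE 0.24, 95% interval -0.66 to 0.39, adjusted p 0.998), so that differences beyond 0.66 on the log2 scale lie outside the interval. The values of this probe carry a limit of sequence. Its last 30 bases are shown with capitals for letters that lie in words of 16 letters found in probes of other genes, on either strand.
Csf3r (mm9, chr4:125721508-125721537, plus strand): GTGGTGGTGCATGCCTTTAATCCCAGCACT
All 30 letters are in capitals, and over the whole probe 38 of 60 letters lie in such words. The words recur in 10 probes of other genes and in the promoter windows of 21 other genes in RefSeq (GRCm38.p6), whereas the other 14 member probes shared words with 0 to 2 probes and 0 to 1 promoter windows. The letters resemble the B1 family of repeats that is scattered through mouse transcripts. Of the 10 probes, 9 were tested, with differences from -0.60 to 0.07. How much of the Csf3r signal came from other transcripts was not tested.

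Epor, the erythropoietin receptor on which erythroid progenitors depend, was tight in young and spread out in old CMPs. Its probe (mm9, chr9:21763422-21763481, minus strand) read 1.86, 1.84, 2.13 and 2.02 in young, and 3.32, 2.93, 1.82 and 2.36 in old. Old 2, old 3 and old 5 exceeded all young arrays, while old 4 was the lowest of all. The mean was 1.96 ± 0.14 (SD, n = 4) in young and 2.61 ± 0.65 in old. The difference of 0.64 (SE 0.30, 95% interval -0.03 to 1.32, 1.56-fold) had an adjusted p of 0.823, and it was 0.72 and 0.57 within the slides and 0.41 without old 2.

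Markers of the neighbouring lineages gave the following values beside Epor. Of 11 erythroid markers tested, 0 passed the threshold, 4 were higher and 7 lower in old, with a median of -0.14, and their mean level ran from -0.12 to 1.23 on young and from -0.09 to 0.75 on old arrays. The largest differences were those of the water channel Aqp1 (1.14, adjusted p 0.13), the globin gene Hba-a1 (-0.95, adjusted p 0.998), the blood group gene Rhd (-0.63, adjusted p 0.998) and the carbonic anhydrase Car2 (0.63, adjusted p 0.508). On young 3 Hba-a1 read 2.21 and Rhd 0.39, against -2.46 to -1.11 and -5.05 to -1.82 on the other young arrays. Within the slide of young 3 their differences were -2.61 and -2.29, and within the other slide 0.71 and 1.04. The erythroid mean was 1.23 on young 3 and -0.12 to 0.22 on the other young arrays. It was 0.75, 0.57, -0.09 and 0.03 on old 2, 3, 4 and 5. All 14 megakaryocyte markers were higher in old, with a median of 1.10, and their mean level ran from 0.61 to 1.2 on young and from 1.96 to 2.20 on old arrays. One of them passed the threshold, Gp9, a subunit of the platelet receptor for von Willebrand factor (difference 1.21, SE 0.17, adjusted p 0.0327), a call that was lost on leaving out any 1 of the 8 arrays and with slide as a block. The part of these cells in the Epor values was not tested.

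Flt3, the receptor tyrosine kinase of early lymphoid and dendritic potential, was lower on average in old CMPs by each of its 3 probes. The brightest (mm9, chr5:148142576-148142635, minus strand) read 2.34, 1.10, 2.13 and 2.17 in young and 1.12, 0.93, 1.40 and 1.80 in old. Young 4 lay among the old arrays. The difference was -0.62 (SE 0.30, 95% interval -1.31 to 0.06, adjusted p 0.868). A probe for another transcript of the gene (chr5:148174133-148174192) read -1.29, -1.36, -0.79 and -0.74 in young and -1.64, -1.35, -1.22 and -1.62 in old, a difference of -0.41 (adjusted p 0.903). The third (chr5:148178496-148178555) read -0.15, -1.44, -1.07 and -1.27 in young and -2.49, -2.53, -0.58 and -0.94 in old. There, old 2 and old 3 were far below the other arrays and old 4 and old 5 above 3 of the 4 young arrays, and the difference was -0.65 (adjusted p 0.998).

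Of the cells that Flt3 is known for, 7 dendritic markers were tested, with 0 past the threshold and a median of -0.05. Their mean level ran from 0.26 to 0.49 on young and from 0.22 to 0.44 on old arrays, and the largest differences were those of Cd209a (-0.54), Itgax (0.22) and Ccr9 (-0.18). Of 14 lymphoid markers on the array, 4 were well above background on no array, among them Ebf1 and Pax5, and the 8 tested had a median of -0.20 with 0 past the threshold. Among them were Cd8a (-0.52) and Cd79a (-0.27). Their mean level ran from -0.55 to -0.29 on young and from -0.76 to -0.39 on old arrays.

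The brightest probes of Flt3 and Csf2rb2 went in opposite directions over the 8 arrays. The other Flt3 probes were not correlated with Csf2rb2. Pearson's r was -0.89 (exact permutation p = 0.0025, adjusted p = 0.045 over 36 pairs) and rho was -0.88 (exact p = 0.00724, adjusted p = 0.13), and r was -0.86 without the 2 arrays farthest from the median of Csf2rb2. The permutations ran over both ages, and after subtraction of the mean of each age r was -0.83. In all, 2 of the 36 pairs of members passed after adjustment by Pearson's r and 0 by Spearman's rho. The share of all gene pairs that would pass was not computed, so the count does not set the receptors apart from other genes. Each member had a most similar gene among all tested, with r from 0.949 to 0.996.

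**Figure D3:**
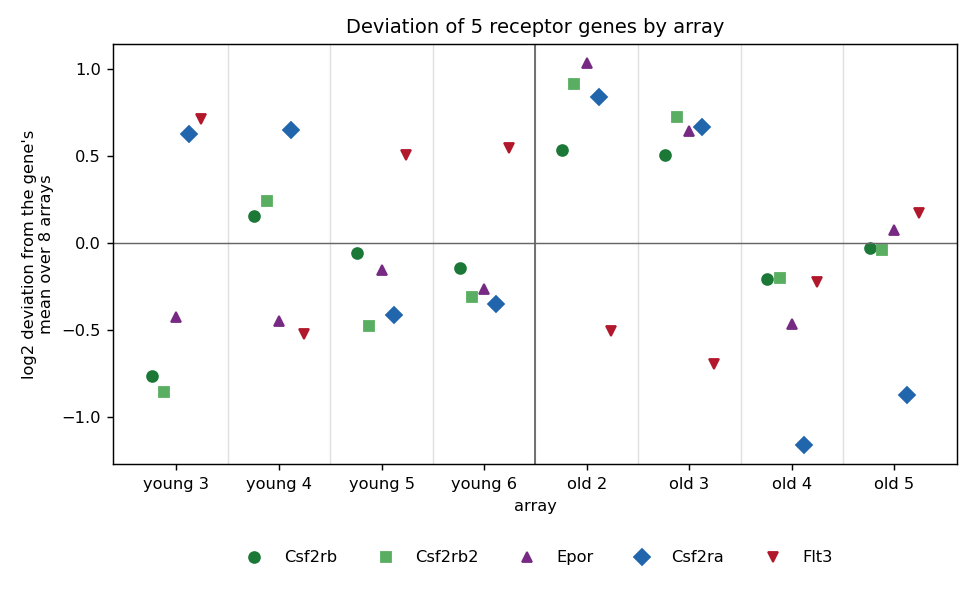
Deviation of the brightest probe of 5 receptor genes from its mean over the 8 arrays (y axis, log2), by array (x axis; the vertical line parts young from old). Old 2 and old 3 are above the mean for Csf2rb, Csf2rb2, Epor and Csf2ra and below it for Flt3, whereas old 4 is below it for all 5 genes.

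The old arrays therefore did not behave alike for these receptors. Old 2 and old 3 were the most similar pair of arrays over all probes (r = 0.992 across probes, which are not independent), and old 2 and young 3 the least (r = 0.967). The first principal component, with 32.3% of the variance, did not follow age. It set young 3 (0.51) and old 4 (0.44) against old 2 (-0.64) and old 3 (-0.35), and young 3, old 4 and old 2 lay on the same slide. With old 2 and old 3 left out, the differences of Csf2rb, Csf2rb2, Epor and Flt3 were smaller in size, at 0.09, 0.24, 0.13 and -0.34, whereas those of Csf2ra, Il3ra and Il6ra were larger, at -1.14, -0.93 and -0.68. That of Csf1r was -0.61 and that of Csf3r 0.01, and 0 of these passed the threshold. For Csf2rb, Csf2rb2, Epor, Flt3, Csf2ra, Il3ra and Il6ra, old 2 and old 3 were the highest or the lowest pair of old arrays. They were left out after these values were seen, so the direction of the changes was fixed by the choice. The cause of the division among the old arrays was not tested.

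The gene whose brightest probe was most like that of each member over the 8 arrays was sought among the 23161 genes tested. It was Ncf4 for Csf1r (r = 0.987), Kri1 for Csf2ra (0.995), Unc13d for Csf2rb (0.993), Hspb1 for Csf2rb2 (0.996), Mtif2 for Csf3r (0.993), Zfp618 for Il3ra (0.949), Gnas for Epor (0.987), Zfat for Flt3 (0.972) and Trmt1 for Il6ra (0.987). These values of r describe 8 arrays and are the highest of many, so that they carry no test.

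The genes around the receptors were counted over lists of genes. Among 8 ligands of the receptors, Csf2, Csf3 and Epo were well above background on 0 arrays, and 1 of the 5 tested passed the threshold. This was Il6, the cytokine bound by Il6ra, which read 1.01, 0.98, -0.01 and 0.57 in young and 2.20, 2.06, 2.37 and 2.41 in old CMPs. All old arrays lay above all young arrays. The difference of 1.62 (SE 0.25, 3.07-fold) had an adjusted p of 0.0457, and it was 1.29 and 1.96 within the slides. The call was lost on leaving out any 1 of the 8 arrays. The median of the 5 ligands was 0.04.

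Of 24 partner receptors tested, 0 passed the threshold in either direction and the median was -0.08. Ifngr2, a chain of the interferon γ receptor, had -0.61 (adjusted p 0.301), and Lifr, the receptor for leukaemia inhibitory factor, had -0.45 (adjusted p 0.968). Among 29 signal transducers 0 passed, with a median of 0.05. The adaptor Irs2 had 0.51 (adjusted p 0.889) and the kinase Jak3 0.39 (adjusted p 0.998).

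Among 24 negative regulators of cytokine signalling 0 passed, and the median was 0.13. The adaptor Sla2 had 0.78 (adjusted p 0.433), the STAT-induced inhibitor Socs3 0.69 (adjusted p 0.263) and the phosphatase Ptprc -0.60 (adjusted p 0.715). Socs3 read 3.44 to 3.99 on young and 4.30 to 4.61 on old arrays, without overlap. Of 18 targets of STAT5, 15 were higher in old and 0 passed, with a median of 0.23. Cish, Socs1, Socs2 and Socs3 are also among the negative regulators, so the lists are not separate. The mean level of the targets ran from 2.48 on young 3 to 3.02 on young arrays. It was 2.94 to 3.25 on old arrays, so the ages overlapped. Besides Socs3, the cytokine Osm had 0.79 (adjusted p 0.47) and the repressor Bcl6 0.69 (adjusted p 0.617). Of 11 transcription factors that act on receptor genes 0 passed, with a median of -0.09. Gata1, the erythroid and megakaryocytic factor, had 0.73 (adjusted p 0.355), Gata2 had 0.72 (adjusted p 0.704), and Irf8, the factor of the monocyte lineage, had -0.71 (adjusted p 0.394).

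**Figure D4:**
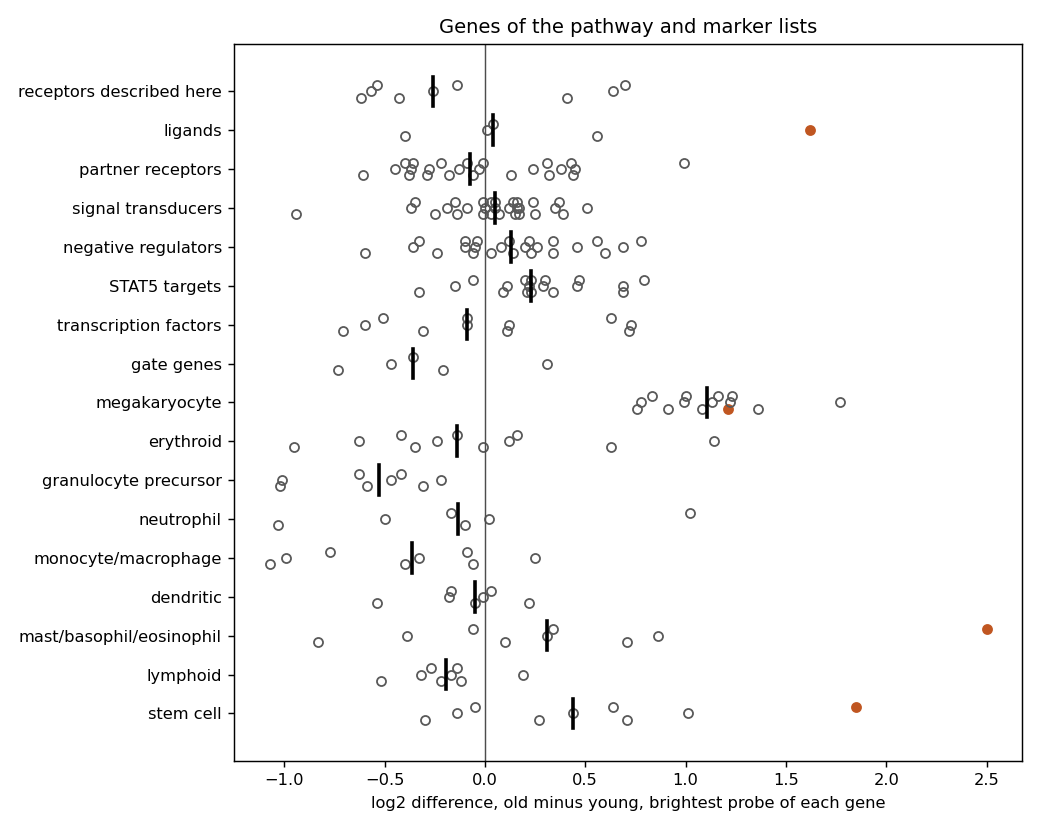
Difference between ages (x axis, log2, old minus young) of the brightest probe of each tested gene, by list (rows). Open circles did not pass the threshold, filled circles did, and the black bars are medians. Il6, Gp9, Fcer1a and Hoxb5 are the 4 filled circles, and no receptor is among them.

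The labelled cell type was checked by the genes of its gate. Kit, Cd34, Fcgr3, Fcgr2b and Ly6a, which encodes the Sca-1 antigen absent from the gated cells, were well above background on all 8 arrays, and 0 of 5 passed the threshold. Their median was -0.36, and the largest differences were those of Ly6a (-0.73, adjusted p 0.414), Fcgr3 (-0.47, adjusted p 0.879) and Fcgr2b (-0.36, adjusted p 0.895). Of 9 stem cell markers tested, Hoxb5, a homeobox gene of long-term stem cells, rose from -4.44 ± 0.27 (SD, n = 4) to -2.60 ± 0.24, with a difference of 1.85 (adjusted p 0.00707), though only 3 of the 4 young arrays were well above background. The call held on leaving out each array in turn but not without both old 2 and old 3, without both young 3 and old 4, or with normexp background correction. A filter of all 8 arrays left the gene untested. The median of the list was 0.44. Of 9 markers of mast cells, basophils and eosinophils, Fcer1a, a chain of the IgE receptor, rose by 2.50 (SE 0.35, adjusted p 0.0293), a call that held without young 5 and without old 2 and was lost without any of the other 6 arrays and with slide as a block. The median of the list was 0.31. Of 6 neutrophil markers tested 0 passed, with a median of -0.13 and the largest values for Mmp8 (-1.03), Cxcr2 (1.02) and S100a8 (-0.50). Among the granulocyte precursor markers the largest differences were those of Elane (-1.02, adjusted p 0.743), Prtn3 (-1.01, adjusted p 0.369) and Fcnb (-0.63, adjusted p 0.974).

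The promoters of the members were read from RefSeq (GRCm38.p6), whose table held 7 of the 9 genes. The 250 bases before the start were searched on both strands for AGATAA (bound by GATA factors), CCACCC (bound by Krüppel-like factors), GAGGAA (bound by PU.1) and TTCNNNGAA (bound by STAT factors). The promoters of Epor and Csf2rb2 are shown because these members had the highest values on old 2 and old 3 and hold the GATA and the STAT letters, respectively. Csf2rb and Csf2ra were also highest on old 2 and old 3. Csf2rb is not among the 7 genes, and the Csf2ra promoter held CCACCC and GAGGAA but neither AGATAA nor TTCNNNGAA. Il6ra, which holds AGATAA, was highest on young 3. A link between these letters and the levels was not tested. Capitals mark matches to any of the 4 motifs on either strand, which do not overlap.
Epor (GRCm38.p6, chr9:21963577-21963826, minus strand): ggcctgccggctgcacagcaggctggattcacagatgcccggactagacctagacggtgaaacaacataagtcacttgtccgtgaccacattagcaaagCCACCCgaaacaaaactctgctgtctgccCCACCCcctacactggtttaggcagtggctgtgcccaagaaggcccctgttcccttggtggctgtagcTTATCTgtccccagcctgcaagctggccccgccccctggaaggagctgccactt
Csf2rb2 (GRCm38.p6, chr15:78305722-78305971, minus strand): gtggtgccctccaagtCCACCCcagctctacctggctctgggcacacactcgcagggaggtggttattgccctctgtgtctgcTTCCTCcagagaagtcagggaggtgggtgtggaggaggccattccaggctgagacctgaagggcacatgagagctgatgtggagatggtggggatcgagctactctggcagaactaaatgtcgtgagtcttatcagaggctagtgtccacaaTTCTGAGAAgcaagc
In the Epor promoter AGATAA lies on the opposite strand, 54 to 49 bases before the start, and CCACCC occurs at 2 places upstream of it. The Csf2rb2 promoter holds TTCNNNGAA 15 to 7 bases before the start, with CCACCC and, on the opposite strand, GAGGAA further upstream. AGATAA was found in 2 of the 7 members (Epor and Il6ra) and in 10.0% of all promoter windows, TTCNNNGAA in 1 member and 7.0%, CCACCC in 4 members and 28.1%, and GAGGAA in 4 members and 23.3%. A match describes letters and not a bound site.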

How the data were processed

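RNA of sorted CMPs was measured on 8 Agilent 8x60K arrays. Per the labels, 100 ng of RNA were labelled with 1 dye and the images were quantified in Feature Extraction 10.7.3.1. The deposited scanner files give a background-corrected intensity per spot. A deposited series table of log2 values, which the authors had scaled and centred, served as an alternative, and all its columns belong to these arrays. Probe coordinates are those of mm9, and gene names are those of the array design.

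From the intensities, log2 values minus the array's 75th percentile were computed in R 4.3.3, outlier spots (141 to 230 per array) were left out and spots of a probe averaged. No spot was saturated. The 75th percentile was 352 to 565 in young and 290 to 518 in old arrays, and 56.2% to 63.7% of spots were well above background. Probes well above background on at least 4 arrays were tested by limma 3.58.1 (lmFit and eBayes, Benjamini-Hochberg adjustment over all tested probes), after a test on simulated data. A gene was represented by its brightest probe and called if any probe passed. Correlations were tested by permuting the arrays exactly. Precision is limited by the number of arrays, since arrays have no depth. Alternatives were background correction, normalization, filter, test, probe averaging, slide or replicate number as a block, and left-out arrays.

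Besides all members and their most similar genes, the text names the called genes of each list or, where there were none, the 3 with the largest absolute difference. Some genes that this rule picks are not reported here. The members and lists were chosen with earlier results of these data known. Spi1, Hras, Ighm and Adgre1 of the lists were not found under these names on the array, which holds the last as Emr1.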

Additional observations from a re-analysis of the deposited data

Results flagged for a closer look

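In each age of each member probe, the array farthest from the others was compared with them by Dixon's ratio, and 2 of 30 groups exceeded its 95% critical value for 4 arrays, where chance gives about 1 in 20. Both values were those of young 3. The middle probe of Csf1r read 1.34 on young 3 and 2.20 to 2.36 on the other young arrays. The upstream probe of Csf2rb2 read 2.12 on young 3 and 3.49 to 3.61 on the others. Without young 3, the brightest probes of these genes had differences of -0.68 and 0.54. The cause was not tested.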

How the results depend on the processing

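No receptor was called in any of the 25 alternative fits, which include 2 chosen after seeing the data (without old 2 and 3, and without young 3 and old 4). Of 243 alternative values of the 9 receptor differences, 237 kept their direction. Part of these could not do otherwise. The other filters, the t-test, the intensity trend, the calls without adjustment or minimum fold, and slide as a block left every difference unchanged. So did probe averaging for genes with 1 probe. The count is therefore not a measure of stability. Csf2ra turned to 0.42 with array weights, 0.08 without old replicate 4 (-0.58 to 0.08 with 1 array left out), 0.25 without young 3 and old 4, and 0.28 within the second slide, and Csf3r to 0.01 without old 2 and 3 and 0.03 within the first slide. The lowest adjusted p of Csf1r was 0.095 and its values ran from -0.68 to -0.40, those of Csf2rb2 from 0.24 to 0.90, of Epor from 0.13 to 0.91 and of Flt3 from -0.90 to -0.34. Scaling to the median moved the median of all probes by 0.12 against the 75th percentile. In the following counts the cause of each change was not tested, except that fewer arrays or other probes were tested where so stated.

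Of the marker genes, 3 were called as higher in old: 1 without a filter on dim probes, with a filter of 1 array, with slide as a block or without old 2 and 3, 7 with an intensity trend and robust variances, 5 with array weights, 0 by the methods' t-test with adjustment or without young 3 and old 4, 23 without adjustment, and 1 to 2 with 1 array left out. None was called as lower (0), but 1 with normexp, 3 with array weights and 9 without adjustment. The 1 pathway gene called as higher, Il6, gave 0 with quantile normalization, without a filter, with a filter of 1 array, by the methods' t-test with adjustment, and with 1 array (0 to 0) or either pair left out, and 12 genes passed without adjustment. As lower, 0 pathway genes passed, and 5 without adjustment.

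Over all genes 48 were called as higher and 10 as lower in old. The respective counts were 75 and 21 with normexp, 24 and 2 without a filter, 27 and 2 with a filter of 1 array, 190 and 88 with array weights, 0 and 0 by the methods' t-test with adjustment, 777 and 631 without adjustment, 22 to 27 and 2 to 6 for the single arrays whose omission moved them, 17 and 4 without old 2 and 3, and 20 and 1 without young 3 and old 4. Higher calls numbered 77 with an intensity trend. Lower calls numbered 3 with quantile normalization, 5 with the median, 6 in the series table or with a filter of 8 arrays, and 4 with slide as a block.

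The labels do not say whether shared replicate numbers pair the arrays. Deviations of same-numbered arrays correlated at -0.09, -0.14 and 0.15. Differently numbered arrays were not set beside them, so these values cannot decide whether the arrays are paired. With the replicate number as a block over replicates 3, 4 and 5, 0 receptors, 0 pathway genes and 0 marker genes were called, and 12 genes were higher and 1 lower over all genes.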
